A study of Mus musculus with 9 samples.

Results

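The transcripts of 48 DNA repair genes were followed in RAW264.7 cells, a mouse macrophage-like cell line, by RNA sequencing. The genes were chosen by name as representatives of 7 repair routes, and all 48 were found by their symbol among the 43629 genes listed. The 9 libraries fall into 3 groups of 3 by the treatment in the labels: untreated control, LPS (lipopolysaccharide, a cell wall component of Gram-negative bacteria that macrophages sense), and LPS with the histone deacetylase inhibitor sodium butyrate (NaBu), which was given before the LPS. Neither dose nor duration is stated for these libraries, and no library of cells given NaBu alone was analysed here, so the effect of NaBu was measured only on top of LPS. The replicates are called biological, but separate cultures are not stated, so the p-values reflect how these libraries vary among themselves, and that variation may be technical. In such bulk samples, fewer cells of a kind and less RNA per cell cannot be told apart.

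DNA repair runs through several routes that answer different lesions. Homologous recombination copies the sister chromatid to mend a broken chromosome and works in S and G2 phase, whereas end joining seals the ends directly at any stage. The Fanconi anaemia proteins unhook crosslinks between the strands, mismatch repair corrects copying errors behind the replication fork, and base and nucleotide excision repair remove damaged bases and bulky adducts. The checkpoint kinases sense breaks and stalled forks and hold the cell cycle while repair proceeds. Many recombination, Fanconi and mismatch repair genes are transcribed with the replication genes in dividing cells, while most excision repair genes are also used by resting cells such as macrophages.

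The libraries held 37.6 M to 64.4 M reads assigned to genes, and within a group the log2 levels of all genes correlated at 0.987 to 0.993. Of 9 tested macrophage identity genes (Csf1r, Cd68, Lyz2 and others), none was at 0 in any group (Adgre1 was not matched by symbol), and their summed normalised count was 426458 to 444432 in control, 535036 to 582882 in LPS and 197553 to 216011 in LPS+NaBu. These 9 did not move together. With LPS+NaBu against LPS, 7 fell and 1 rose (limma, adjusted p under 0.05), where 37.8% of all genes fell and 40.2% rose. Their log2 changes in that comparison ran from -4.19 to 8.21. The 5 LPS response genes examined (Tnf, Il1b, Nos2, Il6 and Cxcl10) all rose with LPS. Markers of other cell types were low: the summed normalised counts were at most 7.26 in any library for hepatocytes, 65.3 for endothelium, 104 for B cells and 112 for neutrophils. The T cell list of 4 reached 1474 in LPS. The 6 fibroblast markers summed to 6.36 to 12.1 in control and 13.03 to 18.8 in LPS but 268 to 296 in LPS+NaBu, with Dcn, 1 of the 6, at 0 in that group. Their part in the changes described here was not tested.

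All 48 genes were expressed: the lowest normalised count of any member in any library was 79.8, and all 48 passed the minimum of 10 in at least 3 libraries. A normalised count is the number of reads assigned to a gene divided by 1 size factor per library. Exon length counts every base that lies in any annotated exon of the gene, so a broad annotation lowers the value per kilobase. Per kilobase of exon in control, the mean normalised count was 1652 for Msh6, 1366 for Ercc3 and 1007 for Xrcc6 at the top and 58.0 for Xrcc4, 41.7 for Xpa and 19.5 for Fancc at the bottom, with a median of 189 over the 48. In LPS+NaBu the median per kilobase was 97.1, Ercc3 was at 1940 and Fancc at 9.48. Replicates lay close together: the SD over 3 libraries was a median 5.01% of the mean in control, 6.30% in LPS and 7.43% in LPS+NaBu, and the widest was Atm in LPS at 21.1%.

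**Figure D1:**
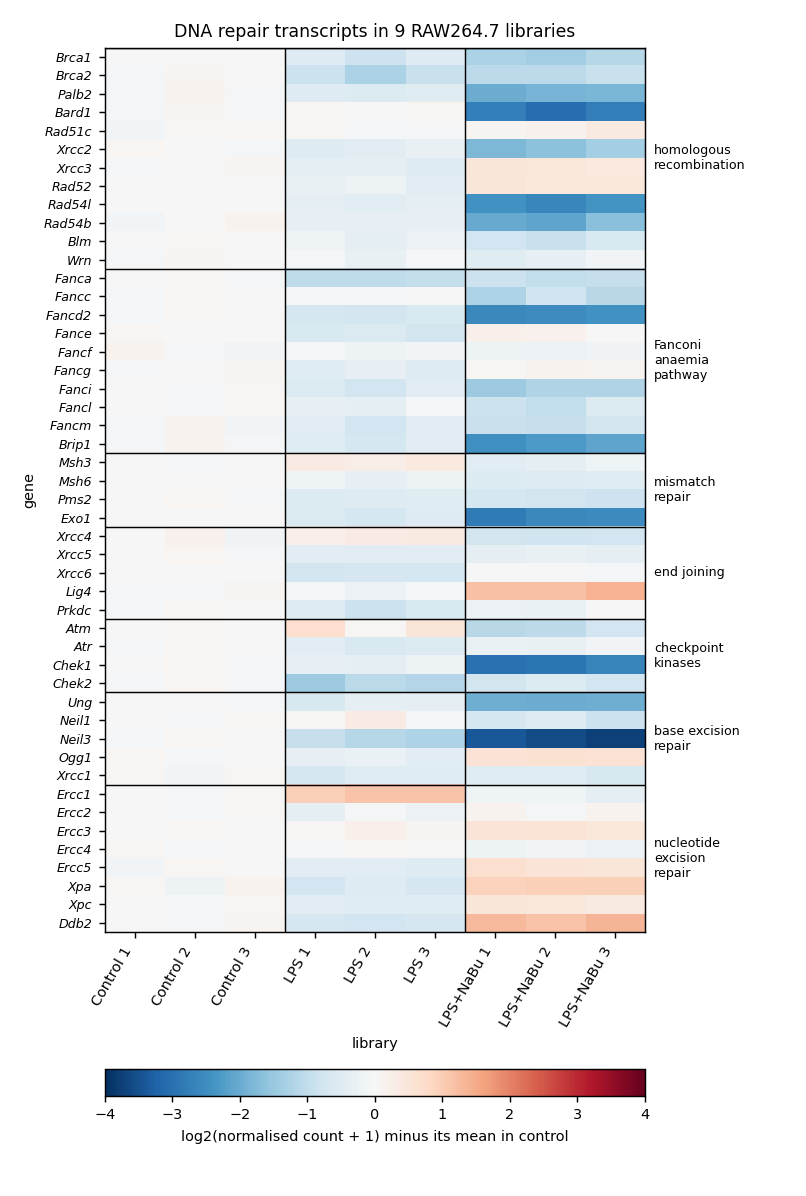
Each cell gives log2(normalised count + 1) of 1 of the 48 genes (rows, grouped by repair route) in 1 of 9 libraries (columns) minus its mean in control, from blue (lower) to red (higher). The 3 LPS+NaBu columns hold both the deepest blue cells (Neil3, Bard1, Chek1) and red cells (Ddb2, Lig4, Xpa), whereas Ercc1 is reddest in LPS.

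LPS lowered most of the repair transcripts by modest amounts. Of the 48 genes, 38 changed (56.1% of all 14808 genes tested did), of which 33 fell and 5 rose with LPS against control (limma, adjusted p under 0.05). Over all genes, 30.8% fell and 25.2% rose. The median log2 change was -0.44 for the 48 and -0.05 for all genes. At least 2-fold changes were few: Chek2, Neil3 and Brca2 fell and Ercc1 rose, against backgrounds of 6.02% falling and 8.41% rising. The 3 LPS libraries lay below the 3 control libraries without overlap for 34 of the 48 (33.3% of all genes) and above for 4 (27.4%). Those that rose were Ercc1, Atm, Msh3, Xrcc4 and Ercc3. This count of 5 was 2 without LPS replicate 3 or without Control replicate 3, 3 without Control replicate 1, and 1 when every library was scaled to the same sum, where 41 fell and Ercc3 fell rather than rose.

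LPS+NaBu against LPS split the set. Of the 48 genes, 42 changed (78.1% of all genes did), of which 25 fell and 17 rose, where 37.8% of all genes fell and 40.2% rose. The changes were larger than with LPS: 14 fell at least 2-fold (background 16.0%) and 3, Ddb2, Xpa and Lig4, rose at least 2-fold (background 21.4%). The 3 LPS+NaBu libraries lay below the 3 LPS libraries without overlap for 24 members (38.1% of all genes) and above for 17 (40.8%). The median log2 change of the 48 was -0.21 and that of all genes 0.02. With every library scaled to the same sum, 20 fell and 21 rose and the median of the 48 was 0.07, beside a median of 0.30 for all genes. That scaling moves the median of all genes and that of the 48 by like amounts (0.27 and 0.28). The shares over all genes include genes that only just reached 10 normalised counts, whereas no member was below 79.8 in any library. With a minimum of 50, 12111 genes were tested, of which 5220 fell and 5020 rose against LPS. The counts of members stayed at 25 and 17.

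LPS+NaBu against control, which shares libraries with both other comparisons, gave 42 changed genes (76.1% of all genes), of which 32 were lower and 10 higher, where 35.1% of all genes were lower and 40.9% higher. The median log2 change was -0.61 for the 48 and 0.09 for all genes. At least 2-fold lower were 14 members (background 13.5%), led by Neil3, Chek1 and Bard1, and at least 2-fold higher were Ddb2 and Lig4 (background 20.7%). The libraries lay apart without overlap for 33 lower members (36.5% of all genes) and 10 higher ones (42.9%). The 10 higher genes were Rad51c, Xrcc3, Rad52, Lig4, Ogg1, Ercc3, Ercc5, Xpa, Xpc and Ddb2. Of these, Rad51c was not called in 9 of 20 alternative settings.

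**Figure D2:**
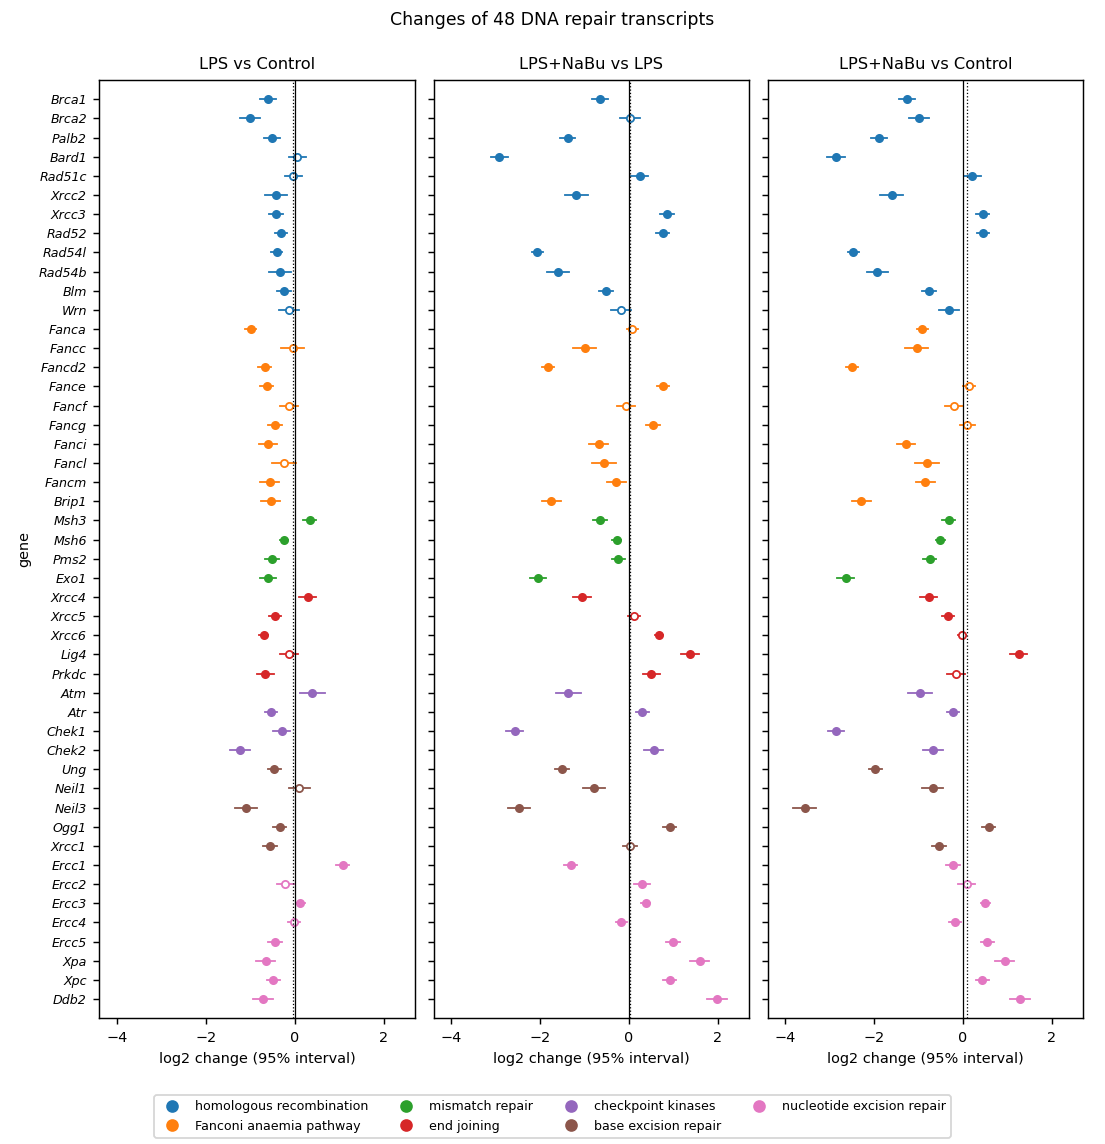
Points give the log2 change of each of the 48 genes in the 3 comparisons with its 95% interval, coloured by repair route; filled points passed an adjusted p under 0.05, and the dotted line is the median of all genes. With LPS most points sit slightly left of 0, and with LPS+NaBu they spread from -2.92 (Bard1) to 1.99 (Ddb2) against LPS.

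**Figure D3:**
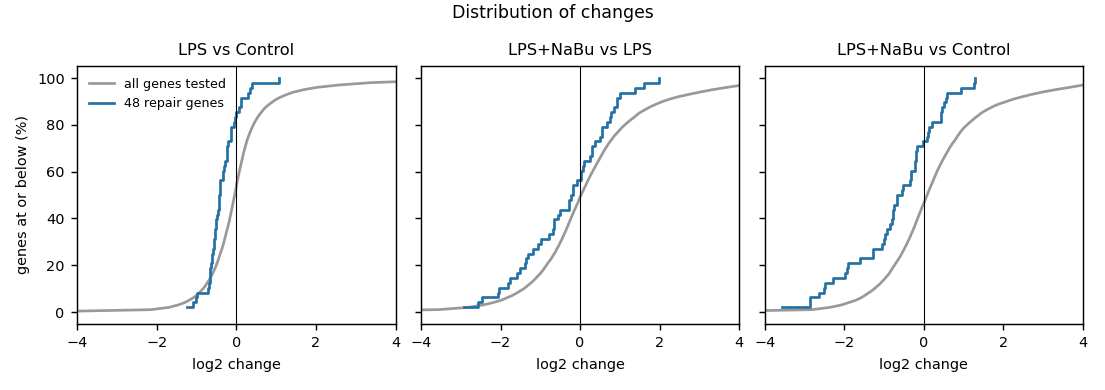
The curves give the percentage of genes at or below each log2 change for the 48 repair genes (blue steps) and all 14808 genes tested (grey). The blue steps run left of the grey curve over most of each panel, and their medians are -0.44, -0.21 and -0.61 in the 3 comparisons.

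Promoter sequence of the members was described with RefSeq windows of 300 bases, from 250 before to 50 after a transcription start, on build GRCm38.p6. Windows were held for 39 of the 48 members; Ddb2, Ercc3, Exo1, Fancd2, Prkdc, Rad54b, Wrn, Xpc and Xrcc2 had none in the table. Motifs of cell cycle promoters were searched on both strands: the E2F site (TTTGGCGC, TTTGCCGC, TTTCGCGC or TTTCCCGC), the CHR element (TTTGAA or TTCGAA) and the CCAAT box (CCAAT). The E2F letters were in 8 of the 39 (20.5%), namely Bard1, Brca2, Chek2, Fancg, Msh3, Msh6, Rad51c and Xrcc6, and in 2.60% of the 27025 genes of the table or 3.29% of its 17491 protein-coding genes. The 2 matches in Msh3 overlap. The CCAAT box was in 23 of the 39 (59.0%) and 41.1% of all genes, and the CHR letters were in 4 (10.3%) and 21.7%. With LPS+NaBu against LPS, the E2F letters were in 4 of the 13 members with a window that rose and 3 of the 21 that fell, and in 1 of the 10 that fell at least 2-fold. A match is a description of the letters and not a measured site.

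The 250 bases before the start are printed 5′ to 3′ for 5 members, with matches to any of the 3 motifs in capitals. Brca2, Chek2 and Neil3 were the 3 that fell at least 2-fold with LPS, Bard1 fell most with LPS+NaBu against LPS, and Xpa rose most among members with a window.
Brca2 (chr5:150522371-150522620, plus strand): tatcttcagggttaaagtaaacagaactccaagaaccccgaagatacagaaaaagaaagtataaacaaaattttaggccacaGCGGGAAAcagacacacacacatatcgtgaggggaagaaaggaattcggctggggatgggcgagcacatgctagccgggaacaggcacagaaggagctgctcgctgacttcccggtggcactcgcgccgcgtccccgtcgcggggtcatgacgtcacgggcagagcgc
Chek2 (chr5:110839733-110839982, plus strand): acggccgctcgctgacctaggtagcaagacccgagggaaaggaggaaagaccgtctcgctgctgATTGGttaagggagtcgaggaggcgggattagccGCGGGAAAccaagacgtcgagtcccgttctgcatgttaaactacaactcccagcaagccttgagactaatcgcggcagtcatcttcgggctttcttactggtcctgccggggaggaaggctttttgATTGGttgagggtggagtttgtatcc
Neil3 (chr8:53639066-53639315, minus strand): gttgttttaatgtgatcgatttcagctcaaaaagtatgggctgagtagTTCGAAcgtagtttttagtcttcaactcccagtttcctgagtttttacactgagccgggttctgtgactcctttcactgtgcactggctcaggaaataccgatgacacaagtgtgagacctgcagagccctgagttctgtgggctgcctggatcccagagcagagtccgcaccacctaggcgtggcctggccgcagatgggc
Bard1 (chr1:71102973-71103222, minus strand): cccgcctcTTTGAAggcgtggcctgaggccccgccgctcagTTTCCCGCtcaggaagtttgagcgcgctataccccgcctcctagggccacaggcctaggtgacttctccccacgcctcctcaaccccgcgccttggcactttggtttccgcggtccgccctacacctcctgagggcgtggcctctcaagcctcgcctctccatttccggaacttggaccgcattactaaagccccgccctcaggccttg
Xpa (chr4:46196312-46196561, minus strand): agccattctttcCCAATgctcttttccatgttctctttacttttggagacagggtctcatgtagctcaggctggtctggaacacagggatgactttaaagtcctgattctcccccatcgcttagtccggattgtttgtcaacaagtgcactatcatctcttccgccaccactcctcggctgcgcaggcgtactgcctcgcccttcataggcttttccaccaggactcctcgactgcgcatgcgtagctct
Bard1 held an E2F match at 209 bases before the start and a CHR match at 242, Brca2 an E2F match at 168, and Chek2 an E2F match at 152 between CCAAT boxes at 186 and 26. Neil3 held only a CHR match, at 202, and Xpa only a CCAAT box, at 238.

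Among the 12 homologous recombination genes, 9 fell and none rose with LPS (over all genes 30.8% fell and 25.2% rose), and with LPS+NaBu against LPS 7 fell and 3 rose (37.8% and 40.2% of all genes). Summed over the 12, the normalised count in LPS was 76.7 ± 3.37% (SD, n = 3) of the control mean and in LPS+NaBu 50.2 ± 2.72%. With every library scaled to the same sum, the values were 65.6 ± 3.39% and 51.9 ± 3.47%. Bard1, the partner with which Brca1 forms a ubiquitin ligase, stood at 1208, 1366 and 1241 in control, 1339, 1285 and 1346 in LPS and 189.8, 152 and 184 in LPS+NaBu. The control and LPS values overlapped (log2 change 0.06, 95% interval -0.14 to 0.26), and every LPS+NaBu value was far below both. The fall against LPS was 7.55-fold, or 2.92 ± 0.09 (SE) on the log2 scale (adjusted p = 7.29e-12). Brca1 itself, the scaffold that directs breaks to recombination, had values of 3594, 3732 and 3643 in control, 2562, 2070.5 and 2577 in LPS and 1522, 1405 and 1644 in LPS+NaBu. The 3 groups did not overlap, and Brca1 fell by 0.61 ± 0.08 with LPS and by a further 0.65 ± 0.08 with LPS+NaBu (adjusted p = 7.52e-06).

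Palb2, which bridges Brca1 and Brca2, was at 956, 1087 and 944 in control, 693, 684 and 710.4 in LPS and 249.6, 272 and 278 in LPS+NaBu. The groups stood in 3 separate steps, and the fall with LPS+NaBu against LPS was 1.38 ± 0.08 on the log2 scale (adjusted p = 4.01e-09). Brca2, a core protein of homologous recombination, was at 1076, 1222 and 1134 in control, 627, 471 and 613 in LPS and 554, 557 and 617 in LPS+NaBu. Brca2 fell with LPS by 1.01 ± 0.11 (adjusted p = 2.93e-06), and its LPS and LPS+NaBu values overlapped (log2 change 0.02, interval -0.21 to 0.25), though scaled to the same sum Brca2 rose by 0.30 (adjusted p = 0.0267). Palb2, for comparison, fell by 0.51 ± 0.08 with LPS (adjusted p = 0.000148).

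Rad54l and Rad54b, motor proteins that remodel recombining DNA, fell with LPS+NaBu against LPS. Rad54l was at 5014, 4868 and 5014 in control, 3807, 3621 and 3781 in LPS and 924, 816 and 942 in LPS+NaBu. The groups were far apart, and Rad54l fell 4.18-fold against LPS (2.06 ± 0.06 on the log2 scale, adjusted p = 2.3e-12). Rad54b, its relative, was at 872, 928 and 1032 in control, 754, 750.0 and 744 in LPS and 232, 217 and 298 in LPS+NaBu. It fell by 1.60 ± 0.11 against LPS (adjusted p = 1.97e-08), while its fall with LPS of 0.33 ± 0.11 (adjusted p = 0.0232) was not called without LPS replicate 3 (adjusted p = 0.0574) or without Control replicate 3 (adjusted p = 0.103). Blm, a helicase that dissolves joined DNA molecules, fell in every comparison (log2 -0.25, -0.52 and -0.76). Wrn, a related helicase, was called with LPS+NaBu against control (-0.32, adjusted p = 0.0119), and not without LPS+NaBu replicate 1 (adjusted p = 0.0637) or Control replicate 2 (adjusted p = 0.0529). Against LPS it was not called (-0.18, adjusted p = 0.115), but was in edgeR (adjusted p = 0.017) and without LPS+NaBu replicate 3 (adjusted p = 0.0216) or LPS replicate 2 (adjusted p = 0.0337).

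Xrcc2, Xrcc3 and Rad51c, which act together in homologous recombination, did not move together. Xrcc2 was at 623, 593 and 555 in control, 409, 434 and 476 in LPS and 169, 187 and 227 in LPS+NaBu. Its groups stood apart and it fell by 1.18 ± 0.12 against LPS (adjusted p = 7.19e-07). Xrcc3 instead fell with LPS (-0.42) and rose with LPS+NaBu against LPS (0.86, adjusted p = 1.2e-07) to above control (0.44). Rad52, a strand annealing protein, had the same sequence of signs (-0.31, 0.76 and 0.45). Rad51c changed little: its rise of 0.25 ± 0.09 against LPS (adjusted p = 0.0218) was not called in edgeR (adjusted p = 0.150), nor without LPS+NaBu replicate 3 (adjusted p = 0.102), LPS replicate 2 (adjusted p = 0.0582) or LPS replicate 3 (adjusted p = 0.0562). Its rise against control was not called in 9 of 20 alternative settings. In 5 of these, 1 library was left out (LPS+NaBu 2 or 3, LPS 3, Control 1 or 2). The others were the replicate block (adjusted p = 0.0572), edgeR (adjusted p = 0.14), quantile normalization (adjusted p = 0.0672) and no filter (adjusted p = 0.0556).

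Of the 10 Fanconi anaemia genes, 7 fell and none rose with LPS (30.8% and 25.2% of all genes), and 6 fell and 2 rose with LPS+NaBu against LPS (37.8% and 40.2%). Their summed level was 66.1 ± 2.22% of control in LPS and 55.8 ± 0.391% in LPS+NaBu, or 56.5 ± 2.20% and 57.8 ± 1.20% with every library scaled to the same sum. The clamp of Fancd2 and Fanci, which is ubiquitinated at a stalled fork, fell in both steps. Fancd2 was at 2160.2, 2356 and 2297 in control, 1425, 1362 and 1476 in LPS and 379, 398 and 425 in LPS+NaBu. Its groups were clearly separate, and it fell 3.54-fold against LPS (1.82 ± 0.07 on the log2 scale, adjusted p = 2.75e-11). Fanci was at 1201, 1138 and 1221 in control, 786, 697 and 869 in LPS and 429.8, 515 and 516 in LPS+NaBu. It fell by less, 0.68 ± 0.10 against LPS (adjusted p = 2.09e-05), with no overlap. Brip1, a helicase that binds Brca1, was at 1435, 1679 and 1476 in control, 1102, 947 and 1113 in LPS and 279.9, 308 and 351 in LPS+NaBu. Its libraries also formed 3 separate steps, with a fall of 1.75 ± 0.10 against LPS (adjusted p = 2.31e-09).

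The Fanconi core complex, which ubiquitinates the clamp, was mixed. Fancc was at 338, 356 and 348 in control, 336, 326 and 345 in LPS and 149, 201 and 159 in LPS+NaBu. Control and LPS overlapped, and LPS+NaBu lay about 2-fold lower (0.99 ± 0.12 on the log2 scale against LPS, adjusted p = 5.7e-06). Fanca fell with LPS (-0.99, adjusted p = 7.73e-09) and showed a log2 change of 0.07 with LPS+NaBu against LPS (interval -0.05 to 0.20), which became a rise of 0.35 (adjusted p = 9.62e-05) with libraries scaled to equal sums. Fance and Fancg fell with LPS (-0.63 and -0.45) and rose with LPS+NaBu against LPS (0.77 and 0.54), and against control their changes of 0.13 and 0.10 were not called. The change of Fance against control was called when scaled to the same sum (log2 0.18, adjusted p = 0.016), with quantile normalization (adjusted p = 0.0243) and without LPS+NaBu replicate 3 (log2 0.19, adjusted p = 0.0192). Fancl, the ligase subunit, and Fancm, the DNA translocase, fell against LPS by 0.56 ± 0.12 and 0.28 ± 0.10. Neither was called with every library scaled to the same sum (log2 -0.28 and -0.01), and Fancm was also not called without either of LPS+NaBu replicates 1 and 2 or either of LPS replicates 1 and 3 (adjusted p = 0.0628 to 0.0794). Fancf, an adaptor subunit, was called in no comparison (-0.13, -0.07 and -0.20), but it was called lower with LPS when scaled to the same sum (log2 -0.35, adjusted p = 0.00562) and lower against LPS with quantile normalization (adjusted p = 0.0496). Against control Fancf was called lower with quantile normalization (adjusted p = 0.0059), in edgeR (adjusted p = 0.0149) and without Control replicate 3 (adjusted p = 0.0414).

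All 4 mismatch repair genes fell with LPS+NaBu against LPS, where 37.8% of all genes fell, though for Msh6 and Pms2 the sign turned when scaled to the same sum, and 3 fell and 1 rose with LPS (30.8% and 25.2% of all genes). Exo1, the exonuclease that removes the strand with the error, was at 1679, 1700.2 and 1664 in control, 1124, 1042 and 1168 in LPS and 236, 282 and 288 in LPS+NaBu. The 3 groups did not overlap, and Exo1 fell 4.13-fold against LPS (2.05 ± 0.08 on the log2 scale, adjusted p = 9.17e-11). The others changed far less. Msh3, a mismatch recognition subunit, rose by 0.33 ± 0.07 with LPS and fell by 0.65 ± 0.07 with LPS+NaBu (adjusted p = 1.49e-06), though scaled to the same sum the rise was not called (log2 0.11). Msh6, the alternative recognition subunit, fell by 0.27 ± 0.05 and Pms2, the endonuclease subunit, by 0.24 ± 0.07 against LPS. Scaled to the same sum, the log2 changes were 0.00 for Msh6 (adjusted p = 0.943) and 0.04 for Pms2 (adjusted p = 0.608).

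Of the 5 end joining genes, 3 fell and 1 rose with LPS (30.8% and 25.2% of all genes), and 3 rose and 1 fell with LPS+NaBu against LPS (40.2% and 37.8%). Their summed level was 69.1 ± 1.32% of control in LPS and 97.3 ± 1.49% in LPS+NaBu. With every library scaled to the same sum, the values were 59.0 ± 1.55% and 101 ± 2.99%. The 8 tested end joining genes outside the 48 went the other way: 3 rose and 1 fell with LPS, 1 rose and 4 fell with LPS+NaBu against LPS, and their summed level was 108 ± 2.57% of control in LPS and 88.3 ± 2.37% in LPS+NaBu. Lig4, the ligase of this route, was at 432, 441 and 482 in control, 435, 379 and 424 in LPS and 1027, 1013 and 1196 in LPS+NaBu. Control and LPS overlapped, and every LPS+NaBu library was well above both, a 2.61-fold rise against LPS (1.38 ± 0.09 on the log2 scale, adjusted p = 1.19e-08). Xrcc4, the scaffold that binds Lig4, was at 698, 795 and 637 in control, 812, 883 and 898 in LPS and 424, 403 and 416 in LPS+NaBu. It moved the opposite way, with a fall of 1.06 ± 0.09 against LPS (adjusted p = 1.31e-07). Its small rise with LPS (0.29 ± 0.09, adjusted p = 0.0143) was not called when scaled to the same sum (log2 0.06) or without LPS replicate 3 (adjusted p = 0.0517) or Control replicate 3 (adjusted p = 0.0725).

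Xrcc6 and Xrcc5, the Ku subunits that cap broken ends, and Prkdc, the kinase they recruit, all fell with LPS (-0.70, -0.45 and -0.66). With LPS+NaBu against LPS, Xrcc6 rose by 0.68 ± 0.04 (adjusted p = 9.91e-09) and Prkdc by 0.50 ± 0.09 (adjusted p = 0.00018), and neither was called against control (-0.03, interval -0.12 to 0.07, and -0.16, interval -0.35 to 0.04). Prkdc was called lower than control in edgeR (log2 -0.22, adjusted p = 0.0305) and without LPS+NaBu replicate 3 (log2 -0.24, adjusted p = 0.0242). Xrcc5 changed by 0.11 against LPS (interval -0.03 to 0.24) and stayed below control (-0.34, adjusted p = 0.000215), and scaled to the same sum it rose by 0.39 against LPS (adjusted p = 8.81e-05).

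Of the 4 checkpoint kinases, 3 fell and 1 rose with LPS (30.8% and 25.2% of all genes), and 2 fell and 2 rose with LPS+NaBu against LPS (37.8% and 40.2%). Chek1, the effector kinase of stalled forks, was at 1698, 1786 and 1595 in control, 1351, 1317 and 1483 in LPS and 215, 222 and 262 in LPS+NaBu. It fell 5.94-fold with LPS+NaBu against LPS (2.57 ± 0.09 on the log2 scale, adjusted p = 1.46e-11), far below both other groups. Its fall with LPS (0.29 ± 0.09, adjusted p = 0.0123) was not called without Control replicate 2 (adjusted p = 0.056). Chek2, the effector kinase of chromosome breaks, was at 827, 899 and 817 in control, 309, 399 and 373 in LPS and 507, 573 and 503 in LPS+NaBu. Its 3 groups did not overlap. It had the largest fall of the 48 with LPS (2.35-fold, adjusted p = 3.12e-07) and rose by 0.55 ± 0.10 with LPS+NaBu against LPS, still under control (-0.68).

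Atm, the kinase that senses breaks, was at 5878, 6191 and 5899 in control, 9493, 6170.4 and 8313 in LPS and 2799, 2879 and 3549 in LPS+NaBu. LPS replicate 2 lay within the range of control while the other LPS libraries were well above it, and all LPS+NaBu libraries were below control. The fall against LPS was 1.36 ± 0.13 (adjusted p = 3.93e-07). The rise with LPS (0.39 ± 0.13, adjusted p = 0.0184) was not called in 7 of 20 alternative settings, including each of the fits without LPS replicate 1 (adjusted p = 0.0788), LPS replicate 3 (adjusted p = 0.0681), Control replicate 1 (adjusted p = 0.0566) and Control replicate 3 (adjusted p = 0.0531). Atr, the kinase that senses stalled forks, fell with LPS (-0.53) and rose partway with LPS+NaBu (0.30 against LPS, -0.23 against control).

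**Figure D4:**
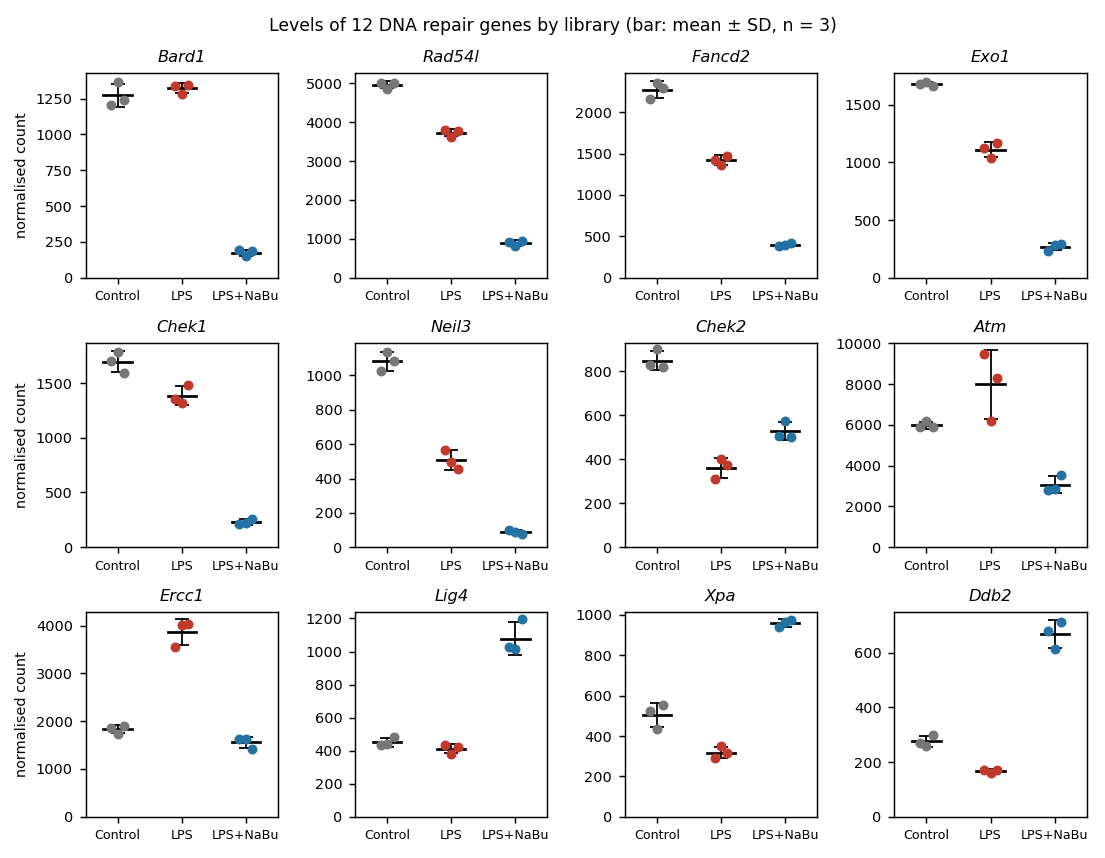
Normalised counts (vertical axis, from 0) of 12 repair genes in each library, with mean and SD over 3 libraries per group. Bard1, Rad54l, Fancd2, Exo1, Chek1 and Neil3 are lowest in LPS+NaBu, Lig4, Xpa and Ddb2 are highest there, and Chek2, Atm and Ercc1 have their lowest or highest mean in LPS.

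Of the 5 base excision repair genes, 4 fell with LPS (30.8% of all genes), and with LPS+NaBu against LPS 3 fell and 1 rose (37.8% and 40.2%). Neil3, a glycosylase for oxidised bases that is known from dividing cells, was at 1027, 1136 and 1085 in control, 568, 494 and 458 in LPS and 102, 90.3 and 79.8 in LPS+NaBu. The groups lay in 3 wide steps, and Neil3 fell 2.14-fold with LPS and 5.59-fold with LPS+NaBu against LPS (adjusted p = 3.19e-10). Its log2 change against control, -3.57, was the largest of the 48. Ung, which removes uracil, was at 2230.2, 2210.2 and 2146 in control, 1423, 1656 and 1715 in LPS and 563, 549.9 and 561 in LPS+NaBu. It fell by 1.51 ± 0.07 against LPS (adjusted p = 2.99e-10) with no overlap. Ogg1, the glycosylase for oxidised guanine, fell with LPS (-0.34) and rose with LPS+NaBu against LPS (0.92, adjusted p = 3.12e-08). Neil1, another glycosylase for oxidised bases, changed by 0.10 with LPS (interval -0.13 to 0.34) and fell by 0.79 ± 0.11 with LPS+NaBu. Xrcc1, the scaffold of the route, fell with LPS (-0.55) and changed by 0.01 with LPS+NaBu against LPS (interval -0.14 to 0.17), or by 0.29 (adjusted p = 0.00149) with libraries scaled to equal sums.

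Of the 8 nucleotide excision repair genes, 4 fell and 2 rose with LPS (30.8% and 25.2% of all genes), and 6 rose and 2 fell with LPS+NaBu against LPS (40.2% and 37.8%). Their summed level was 113 ± 5.67% of control in LPS and 127 ± 2.64% in LPS+NaBu. Without Ercc1 the level in LPS was below control, at 93.4 ± 4.18%, and that in LPS+NaBu was 135 ± 2.01%, and with every library scaled to the same sum the 8 stood at 96.7 ± 3.99% and 131 ± 0.872%. Of the 13 other genes of the route that were tested, 7 rose and 4 fell with LPS+NaBu against LPS, 6 were higher and 6 lower against control, and their summed level was 98.9 ± 0.734% of control in LPS and 90.3 ± 1.38% in LPS+NaBu. Ddb2, which finds ultraviolet lesions in chromatin, was at 270.3, 258 and 298 in control, 170.4, 159.6 and 171 in LPS and 681, 612 and 713 in LPS+NaBu. The groups did not overlap, and Ddb2 fell by 0.72 ± 0.10 with LPS and rose 4-fold with LPS+NaBu against LPS (1.99 ± 0.10 on the log2 scale, adjusted p = 9.24e-10). Xpa, which verifies the lesion, was at 523, 437 and 551 in control, 292, 349 and 314 in LPS and 941, 963 and 977 in LPS+NaBu. It followed the same order of groups and rose 3.02-fold against LPS (adjusted p = 6.88e-09). Xpc, the other lesion sensor, and Ercc5, the 3′ nuclease, also fell with LPS (-0.48 and -0.45) and rose with LPS+NaBu against LPS (0.92 and 0.99).

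Ercc1, the binding partner of the 5′ nuclease, went the other way. It was at 1846, 1734 and 1897 in control, 3550.0, 4012 and 4038 in LPS and 1621, 1629.5 and 1428 in LPS+NaBu. Every LPS library lay far above all other libraries, with a 2.12-fold rise (adjusted p = 2.18e-08) and then a fall of 1.31 ± 0.07 on the log2 scale against LPS (adjusted p = 1.06e-09). Ercc4, the nuclease that binds Ercc1, changed by -0.02 with LPS (interval -0.15 to 0.11), or by -0.24 (adjusted p = 0.00225) with libraries scaled to equal sums, and its fall of 0.17 ± 0.06 with LPS+NaBu against LPS turned to a log2 change of 0.11 (adjusted p = 0.1) when scaled to the same sum. That fall was also not called when LPS+NaBu 1 or 3 or LPS 2 or 3 was left out (adjusted p = 0.0562 to 0.0645), and its fall against control was not called without Control replicate 1 (adjusted p = 0.0516). Ercc3 and Ercc2, the helicases of the transcription factor that opens the DNA, rose by 0.38 ± 0.05 and 0.30 ± 0.09 against LPS. The rise of Ercc3 with LPS was small (0.12 ± 0.05, adjusted p = 0.039), was not called when any 1 of 6 libraries was left out (all but LPS 1, LPS+NaBu 3 and Control 2), and became a fall of 0.11 when scaled to the same sum, and the change of Ercc2 with LPS (-0.21, adjusted p = 0.0533) was not called. Ercc2 was called lower in 5 of 20 alternative settings, among them without LPS replicate 2 (log2 -0.30, adjusted p = 0.00705), without LPS+NaBu replicate 2 (adjusted p = 0.0459) and scaled to the same sum (log2 -0.44, adjusted p = 0.000598).

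**Figure D5:**
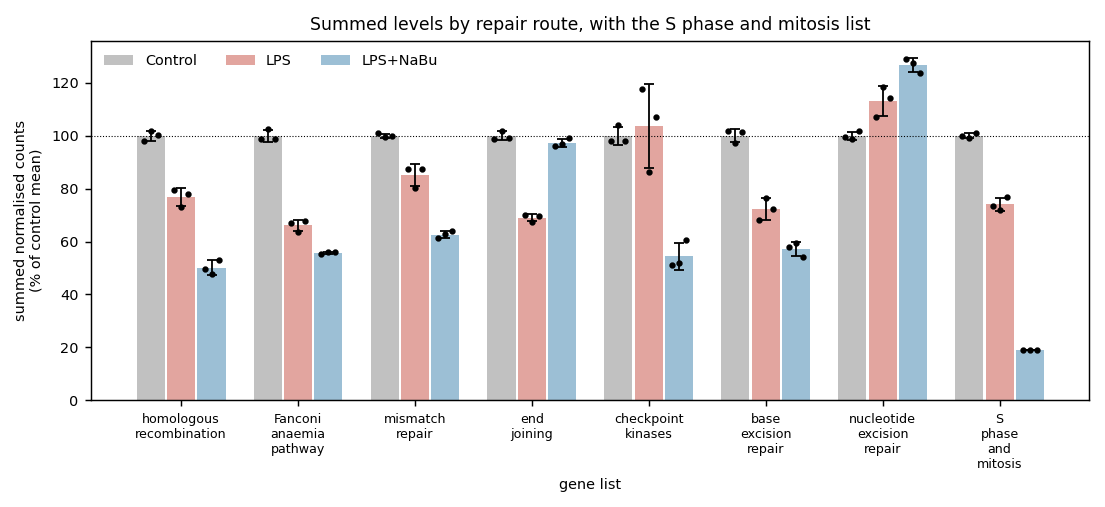
Bars give the summed normalised count of each repair route, and of the S phase and mitosis list, as a percentage of the control mean (mean and SD of 3 libraries, points are libraries). Recombination and mismatch repair step down from control to LPS+NaBu, the 5 end joining members return to 97.3%, the 8 nucleotide excision repair members stand at 127%, and the S phase and mitosis list falls to 19.0%.

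A wider list of 90 repair genes outside the 48 was counted in the same way. Of these, 87 were listed and 86 were tested. With LPS, 40 fell and 11 rose (30.8% and 25.2% of all genes). With LPS+NaBu against LPS, 45 fell and 23 rose (37.8% and 40.2%), and against control 56 were lower and 18 higher (35.1% and 40.9%). Scaled to the same sum, the counts were 66 lower and 4 higher with LPS, and 37 rose with LPS+NaBu against LPS. With LPS, Timeless, a fork protection protein, rose by 1.46 ± 0.05, and Rad51b, a recombination gene, fell by 1.12 ± 0.20. Timeless was at 3791, 3787 and 3882 in control, 10595, 10463 and 10543 in LPS and 1801, 1702 and 1604 in LPS+NaBu, so LPS raised it and LPS+NaBu took it below control. With LPS+NaBu against LPS, Timeless fell by 2.63 ± 0.05 and Rad51ap1, another recombination gene, by 2.42 ± 0.11. Against control, Rad51ap1 fell by 2.80 ± 0.11 and Fancb of the Fanconi core complex by 2.76 ± 0.12.

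Most genes of S phase and mitosis fell in both steps. Of 18 such genes (Mki67, Top2a, the Mcm subunits and others), 14 fell and 1 rose with LPS (30.8% and 25.2% of all genes). All 18 fell with LPS+NaBu against LPS (37.8% of all genes), 17 of them at least 2-fold (16.0%). Their summed normalised count was 195606 to 199008 in control, 142059 to 151464 in LPS and 37284 to 37759 in LPS+NaBu. Of 15 p53 target genes (Cdkn1a, Mdm2 and others), 5 rose and 7 fell with LPS (25.2% and 30.8% of all genes). With LPS+NaBu against LPS, 6 rose and 6 fell (40.2% and 37.8%). The summed level of the 15 was 182 ± 2.25% of control in LPS and 113 ± 1.15% in LPS+NaBu. The part of either list in the changes of the repair genes was not tested.

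Several members share exon bases with a neighbour on the opposite strand, and no source used here states whether counting used the strand. Of the exon bases of Xrcc3, 43.4% lie within Klc1, whose mean normalised counts were 6697, 4439 and 10741 in control, LPS and LPS+NaBu, the same order of groups as Xrcc3. For Ddb2, 37.0% lie within Acp2, whose means of 1936, 2680 and 1038 run in the reverse order of Ddb2. Rad54l shares 22.2% with Lrrc41 (4301, 4982 and 1452), Xpa 12.4% with Ncbp1 (6335, 6172 and 9502), Brca2 12.3% with N4bp2l1 (456, 262 and 576), and Ogg1 29.7% with Camk1 (5693, 2730 and 4053). Ercc2 shares 38.8% with Klc3 (148, 131 and 1240) and Fancl 34.7% with Vrk2 (551, 945 and 308). Fanca shares 28.5% with Zfp276 (718, 662 and 1058). Fancf shares 28.4% with Gas2 (602, 456 and 276) and Fanci 18.2% with Polg (2953, 2590 and 2569). Rad54b shares 33.7% with Fsbp on the same strand. How far such reads entered the members' counts was not tested.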

How the data were processed

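The 48 members and all gene lists were chosen with earlier results of these data known. RNA was extracted with TRIzol and libraries were made with a modified NEBNext directional kit. Per the study's methods, Trimmomatic filtered the reads, HISAT2 aligned them and featureCounts counted the uniquely mapped ones. STAR 2.7.7a, DESeq2 and mm39 stand in the processing notes of the submitters. The sources differ on the aligner, and the counting strand is not given in the sources used. The signal the authors deposited is called FPKM, but it is gene counts divided by 1 size factor per library and not by gene length. In all 9 libraries 100% of the values were whole multiples of 1 step (within 0.001), although in 3 libraries the step lay within 1% of 1, where this alone says little. Size factors were also recomputed from the recovered reads, as the median over genes of the ratio to the mean of all libraries. In all 9 libraries, those 3 included, the recomputed factor was the inverse of the step.

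The test was run on the 14808 genes that reached 10 normalised counts in 3 or more libraries. limma 3.58.1 (R 4.3.3) was fitted to log2 values after adding 1, over the 9 libraries with 1 mean for each group and an intensity trend. Two-sided p-values were adjusted by Benjamini-Hochberg across the 14808, with a threshold of 0.05. The minimum is in normalised counts, and fold changes on this scale understate changes of low genes. Values per library are given for the 22 members called with a change of at least 2-fold in any comparison, and of the related repair genes those among the 3 with the largest called change per comparison are named, except some that are not reported here. Levels are normalised counts, differences are log2 changes ± SE, and intervals are 95% intervals of the fit. Alternatives were other pseudocounts, filters, scalings and samples, a replicate block, and edgeR 4.0.16 and DESeq2 1.42.0 on the recovered reads. The summed level of nucleotide excision repair without Ercc1 was added after seeing the data. The fits were tested on simulated data in which few genes changed, none of them with LPS, and all genes had the same setting for spread. These libraries differ from that, so the simulation does not show how well the fits work on them. Lengths and exon overlaps come from GENCODE M39 and promoter windows from RefSeq. Labels name no batch, so none was examined.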

Additional observations from a re-analysis of the deposited data

How the results depend on the processing

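Direction and call were recomputed under 20 alternatives per result. Of the members called, 32 of 38 with LPS against control, 36 of 42 with LPS+NaBu against LPS and 39 of 42 with LPS+NaBu against control were called under all of them. Of those not called, 7 of 10, 6 of 6 and 3 of 6 were called under 1 or more, the 7 all lower when scaled to the same sum. The number of members higher with LPS, 5, was 3 with quantile normalization, 3 with only the 2 groups compared, 1 when scaled to the same sum, and 2 to 5 when single libraries were left out. Scaling to the same sum moved the median of all genes by -0.22 with LPS and 0.27 with LPS+NaBu against LPS (log2); edgeR moved the latter by -0.11, and quantile normalization moved that of LPS+NaBu against control by -0.16. Under the same sum, 1 member was higher and 41 lower with LPS (2.38% higher among those called, against 13.2%), and 21 were higher and 20 lower with LPS+NaBu against LPS (51.2% against 40.5%). Over all genes it gave 2273 higher and 7074 lower in place of 3739 and 4568 with LPS, and 7417 and 4132 in place of 5956 and 5602. That scaling turned the log2 change of Ercc3 with LPS to -0.11, and with LPS+NaBu against LPS those of Ercc4 to 0.11, Msh6 to 0.004 and Pms2 to 0.039. Same-numbered libraries did not deviate together (correlations of -0.04 to 0.02, beside -0.07 to 0.08 for other pairs). This cannot show whether libraries of the same number were prepared together. With a replicate block the counts higher and lower were 5 and 33, 17 and 25, and 9 and 32, and the 1 call lost was Rad51c against control (log2 0.21, adjusted p = 0.0572). Every member had a normalised count of at least 79.8 in every library, but whether reads per library limit the calls was not tested. With only 3 libraries per group, small changes can be missed.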
